A study of Mus musculus with 302 samples.

Results

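The exocrine pancreas genes Prss2, Cel, Cela2a and Cpb1 were followed across frozen liver pieces of 302 F2 mice. They encode a trypsinogen (Prss2), the bile salt-activated lipase (Cel), an elastase (Cela2a) and a carboxypeptidase (Cpb1). Members were all probes that the array's annotation gives to these genes, which came to 1 probe for each gene, 4 of 23562 deposited probes. The animals were the second generation of a reciprocal C57BL/6J and C3H/HeJ cross, of both sexes, in 1 group with no untreated or sham control. Every animal ate chow with 4% fat up to 8 weeks of age and a Western diet with 42% fat and 0.15% cholesterol for a further 12 weeks, and was killed at 20 weeks after a 12-hour fast. Each array set liver RNA of 1 mouse (Cy3) against a pool with an equal share of every mouse (Cy5). If the pool held just these 302 mice, 1 mouse made up 0.331% of it. Values are log10 ratios of mouse over pool, a base and a direction that are likely but not stated in the sources used here, and fold values below are their antilogs. A ratio gives no level: how much of each RNA a liver held cannot be read from it, and values are compared between livers and not between genes.

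The acinar cells of the pancreas make digestive enzymes, most of them as inactive precursors. Trypsinogens become trypsin in the gut and then activate the other precursors, among them the elastases, chymotrypsinogens and procarboxypeptidases. Cel splits dietary cholesteryl esters and other lipids in the presence of bile salts. Acinar enzyme genes are among the most strongly transcribed genes of the body, and the transcription factor complex PTF1, made of Ptf1a, an E protein and Rbpjl, drives them. In rodents the pancreas lies beside the liver and along the bile duct.

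The promoters of the 4 genes and of Prss1, the trypsinogen gene that rose beside Prss2 in single livers, are printed to show the letters that PTF1 is known to bind. They span 250 bases before to 50 bases after the start of each gene and come from RefSeq (GRCm38.p6), at chr6:41521526-41521825 on the + strand for Prss2, chr2:28563354-28563653 on the - strand for Cel, chr4:141825956-141826255 on the - strand for Cela2a, chr3:20275684-20275983 on the - strand for Cpb1 and chr6:41458680-41458979 on the + strand for Prss1. Each is written 5′ to 3′ on the strand of its gene. Capitals mark the E-box CACCTG on either strand, the RBPJ-type box TGGGAA on either strand and the letters TATAAA, those of a TATA box, on the gene's strand.

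Prss2: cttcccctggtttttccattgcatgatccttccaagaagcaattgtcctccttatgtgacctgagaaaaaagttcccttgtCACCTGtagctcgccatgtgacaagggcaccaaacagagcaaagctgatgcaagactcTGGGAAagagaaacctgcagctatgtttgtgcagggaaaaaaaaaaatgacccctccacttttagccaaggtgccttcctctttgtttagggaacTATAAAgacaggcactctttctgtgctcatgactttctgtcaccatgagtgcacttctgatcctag
Cel: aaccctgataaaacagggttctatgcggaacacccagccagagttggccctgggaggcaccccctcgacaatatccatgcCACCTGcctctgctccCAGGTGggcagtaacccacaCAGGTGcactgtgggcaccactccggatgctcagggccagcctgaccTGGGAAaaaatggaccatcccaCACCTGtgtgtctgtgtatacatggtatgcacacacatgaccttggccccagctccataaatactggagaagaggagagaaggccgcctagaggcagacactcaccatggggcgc
Cela2a: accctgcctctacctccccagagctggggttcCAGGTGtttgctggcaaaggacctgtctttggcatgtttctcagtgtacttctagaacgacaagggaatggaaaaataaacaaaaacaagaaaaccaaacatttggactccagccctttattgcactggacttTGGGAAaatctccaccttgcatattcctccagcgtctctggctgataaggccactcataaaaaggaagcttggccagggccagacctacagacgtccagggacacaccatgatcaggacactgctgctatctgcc
Cpb1: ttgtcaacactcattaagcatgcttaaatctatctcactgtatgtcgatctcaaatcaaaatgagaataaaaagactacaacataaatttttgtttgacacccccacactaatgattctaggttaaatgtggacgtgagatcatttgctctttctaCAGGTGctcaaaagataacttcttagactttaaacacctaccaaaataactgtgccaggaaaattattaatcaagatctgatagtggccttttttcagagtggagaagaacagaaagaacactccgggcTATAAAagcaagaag
Prss1: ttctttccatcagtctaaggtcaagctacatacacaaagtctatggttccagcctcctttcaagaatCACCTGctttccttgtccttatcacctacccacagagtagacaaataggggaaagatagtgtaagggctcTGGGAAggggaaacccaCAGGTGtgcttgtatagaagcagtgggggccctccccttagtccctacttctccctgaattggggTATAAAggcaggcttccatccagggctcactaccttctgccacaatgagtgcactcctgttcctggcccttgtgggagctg

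All 5 promoters held the E-box, with 4 matches in Cel, 2 in Prss1 and 1 each in Prss2, Cela2a and Cpb1, whereas 20.2% of 32851 RefSeq promoters of the same length held it. TGGGAA stood once in Prss2, Cel, Cela2a and Prss1, and these letters were not in the Cpb1 window. It stood in 25.6% of all promoters, and 5.27% held both boxes. TATAAA began 31 bases before the annotated start in Prss1 and 16 before it in Prss2. In Cpb1 the match lay after the annotated start, so it was not where a TATA box is found. These letters stood in 8.32% of all promoters. None of the 16 matches overlapped another. The boxes were counted wherever they stood in the window, with no rule for the spacing between them. A match of letters is a description and shows no binding.

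Over the 302 livers Prss2 had a lowest ratio of -0.496, a median of -0.00299 and a highest of 1.23, a range of 0.319 to 17.1-fold of the pool (SD 0.105). Cel had a lowest ratio of -0.0999, a median of 0.0131 and a highest of 0.447, or 0.794 to 2.80-fold (SD 0.0415). Cela2a had a lowest ratio of -0.451, a median of -0.0203 and a highest of 0.707, or 0.354 to 5.09-fold (SD 0.155). In all 3 the highest value belonged to the liver of mouse 315. Cpb1 had a lowest ratio of -0.502, a median of 0.0283 and a highest of 1.40, or 0.315 to 25.3-fold (SD 0.143), and its highest liver was that of mouse 137. None of these values lay at the limits of -2 and 2 where the deposited ratios end.

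Livers were centred on the median of their block before they were compared. The 4 blocks were formed by the Y-linked gene Eif2s3y, below or above -0.8, and by the mouse number, up to 212 or above, and held 82 and 78 mice with high Eif2s3y and 77 and 65 mice with low Eif2s3y, the smaller numbers first in each case. Block medians differed little: between -0.0133 and 0.00373 for Prss2, between 0.00415 and 0.0241 for Cel, between -0.0382 and 0.0223 for Cela2a, and between -0.00398 and 0.0468 for Cpb1. The 4 genes differed in how their spread was made up. The robust SD, which single livers hardly move, was 0.0389 for Prss2 and 0.0245 for Cel, percentiles 28.7 and 3.82 of all probes, whose median was 0.0519. It was 0.0599 for Cpb1 (percentile 60.7) and 0.135 for Cela2a (percentile 95.1). By the plain SD, Prss2 stood at percentile 83.8, Cel at 19.9, Cela2a at 94.4 and Cpb1 at 92.8. Prss2 and Cel thus had a narrow central range with single far livers. For Cel, 3 livers lay at least 5 robust SDs above their block median, but only 1 liver lay at least 2-fold above it. Cpb1 had a middling central range with single far livers, and Cela2a was spread broadly over all livers.

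A liver was called high for a probe when it lay at least 2-fold and at least 5 robust SDs above its block median. By this rule Prss2 was high in 3 livers, Cel in 1, Cela2a in 1 and Cpb1 in 8. All 4 genes thus had at least 1 high liver, as did 17% of the 23512 probes tested, those measured in 90% of the mice or more. Of the 302 livers, 292 were high in none of the 4 genes, 9 in a single gene and 1, that of mouse 315, in all 4. The next livers below the rule were mouse 85 for Prss2 (0.210 above its block median), mouse 135 for Cel (0.181, or 1.52-fold), mouse 308 for Cela2a (0.523, or 3.33-fold) and mouse 336 for Cpb1 (0.277, or 1.89-fold). Because Cela2a varied so broadly, 5 robust SDs were a 4.71-fold step for it, and the liver of mouse 315 passed this step narrowly at 5.09 robust SDs.

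**Figure D1:**
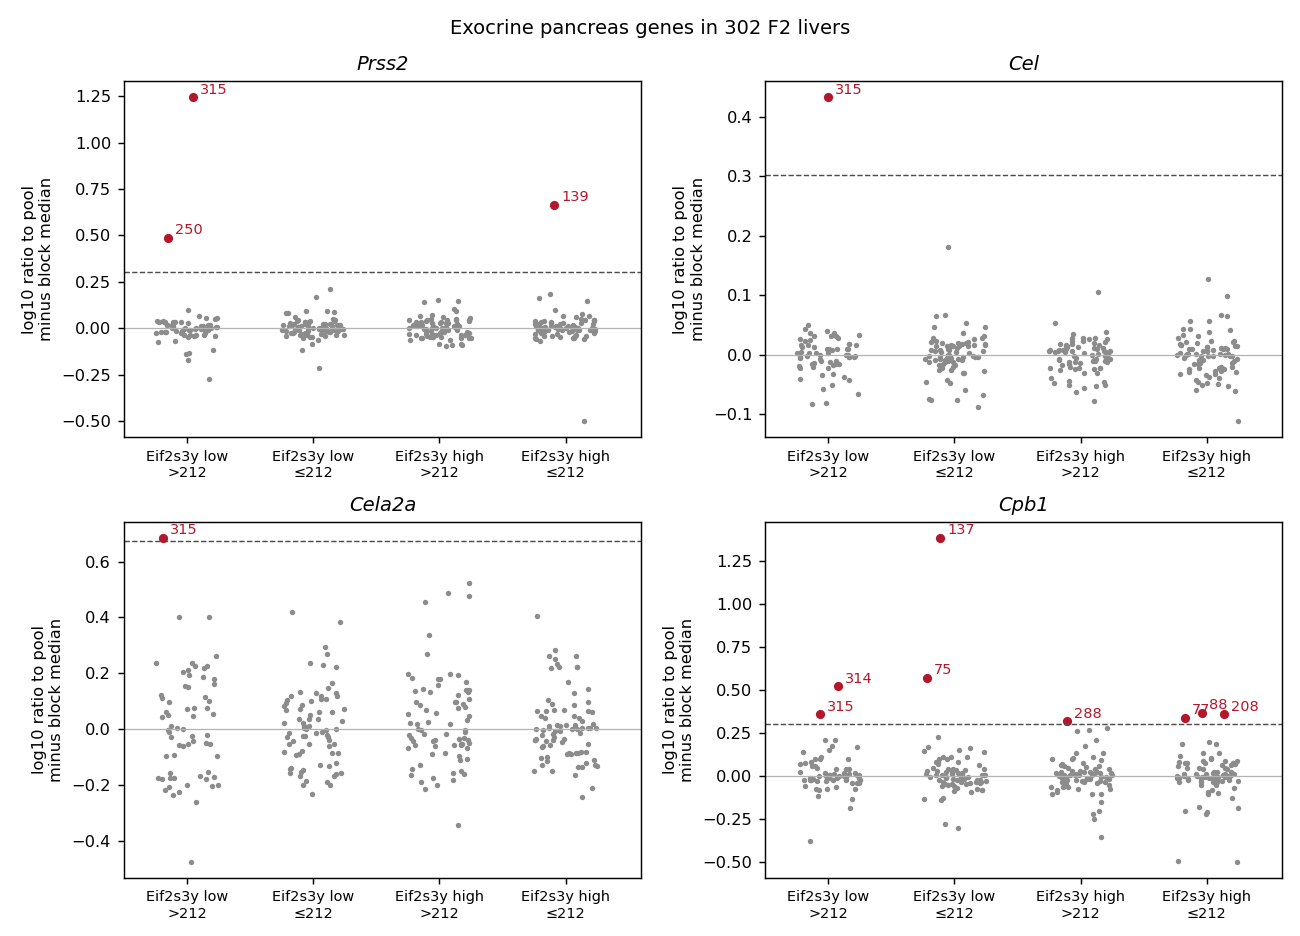
Values of Prss2, Cel, Cela2a and Cpb1 in each of 302 livers, as log10 ratio to the pool minus the median of the liver's block (vertical axis), by block of Eif2s3y and mouse number (horizontal axis). Each point is 1 liver, the dashed line is the height a liver must reach to be called high, and high livers are red with their mouse number. Mouse 315 stands above the line in every panel, and Cpb1 has 7 other high livers.

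In the liver of mouse 315 Prss2 was 17.6-fold above its block median (1.25 in log10, 32.0 robust SDs), Cela2a 4.84-fold (0.685), Cel 2.71-fold (0.432, 17.6 robust SDs) and Cpb1 2.27-fold (0.357, 5.96 robust SDs). It had rank 1 of 302 livers for Prss2, Cel and Cela2a and rank 6 for Cpb1. Few other probes were high there: 19 of 23512, or 0.0808%. Of these 19, 12 had a gene name, and 8 of the 12 were exocrine pancreas genes, the 4 members included. The array was not unusually wide, with an SD over all probes of 0.107 against a median of 0.0975 over all arrays and rank 87 of 302 from the widest. In tissue pieces, more acinar cells and more RNA per cell cannot be told apart, and the source of the RNA was not tested.

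A list of 50 exocrine pancreas gene symbols beyond the 4 members had 24 genes with a usable probe, and with the members 28 genes were measured. Where a gene had several probes, the probe with the largest SD over all livers stood for it, a choice that favours probes with far livers. In mouse 315, 4 of the 24 listed genes were high (16.7%), beside 0.0808% of all probes, a share made without such a choice. Prss1 counted through 1 probe, and its other probes did not reach the rule there. This liver was singled out by the 4 members, which bring the count to 8 of 28 and are no support for it. The 4 listed genes were Prss1, a second trypsinogen (16.8-fold above the block median), Reg1 (4.68-fold) and Reg2 (3.10-fold), secreted lectin-like proteins of acinar cells, and Ctrl, a chymotrypsin-like protease (2.04-fold). It had rank 1 of all livers for Ctrl and Reg2, rank 2 for Prss1 and rank 3 for Reg1. No other liver had more than 2 of the 28 high: 262 livers had 0, 26 had 1 and 13 had 2. Of the 24 without the members, 2 were high in 7 other livers, and no other liver had more. The remaining named genes high in mouse 315 were Atf3, a stress-response transcription factor (7.60-fold), Dspp, a dentin matrix protein (4.19-fold), 2010204K13Rik (4.12-fold) and Dact1, a regulator of Wnt signalling (3.76-fold).

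The other 20 listed genes did not reach the rule in mouse 315, and the list's 24 genes together had a median of 0.0181 with a range of -0.141 to 1.22, beside a median of 0 over all probes. Cuzd1, a zymogen granule membrane protein, lay 0.253 above its block median, the kallikrein Klk1 0.249 and the granule glycoprotein Gp2 0.207. Values near 0 were found for the lipase-related genes Pnliprp1 (0.0766) and Pnliprp2 (0.00501), for the phospholipase Pla2g1b (-0.00412) and for the trypsin inhibitor Spink1 (0.0391). The acinar transcription factors were also near 0, with -0.0598 for Ptf1a, 0.00304 for Rbpjl, -0.0241 for Bhlha15 and -0.0770 for Nr5a2. For Reg3a, Reg3b, Reg3g and Reg3d, relatives of Reg1, the values were -0.0523, 0.0380, -0.141 and -0.0391. Of the listed genes, high values in this liver were thus found for Prss1, Ctrl, Reg1 and Reg2. Some other enzymes of the list lay near 0, as did the measured regulators. Prss1 had 3 probes, which disagreed in mouse 315: the one quoted here was at 1.22 and the others at 0.128 and 0.0145.

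Of the marker lists of other tissues and cells, none had a high gene in mouse 315. The 14 measured markers of endocrine islets had a median of 0.00611 (from -0.242 to 0.187), and the 6 of ducts a median of -0.0225 (from -0.0995 to 0.00574). The medians were -0.0455 for 8 intestine and stomach genes, 0.0390 for 4 fat genes, 0.00417 for 7 B cell genes, -0.00546 for 6 muscle genes, -0.0184 for 6 smooth muscle genes and 0.0456 for 3 kidney and adrenal genes, of which the kidney transporter gene Slc12a1 lay at 0.715 without reaching the rule. The 7 hepatocyte genes had a median of -0.0519 and ran from -0.109 to 0.0516, so the liver's own markers lay close to the block median.

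The livers of mice 139 and 250 were high in Prss2 alone of the 4 genes, and both were also high in Prss1. In mouse 139 Prss2 was 4.63-fold and Prss1 3.66-fold above the block median, where 0.0766% of all probes were high. In mouse 250 Prss2 was 3.07-fold and Prss1 2.33-fold above it, where 0.0595% were. These livers had ranks 2 and 3 of 302 for Prss2 and ranks 3 and 4 for Prss1. Mouse 139 had rank 2 for Ctrl (1.44-fold), rank 3 for Cel (1.34-fold) and rank 13 for both Cela2a (1.91-fold) and Reg1 (1.79-fold), but rank 276 for Cpb1 (0.795-fold). Mouse 250 had rank 20 for Cela2a (1.72-fold), rank 21 for Reg1 (1.47-fold), rank 25 for Cel (1.09-fold) and rank 196 for Ctrl (0.978-fold). All 8 genes high in mouse 315 were lower in mice 139 and 250 than there, as the plot of 28 genes shows. These genes were picked for high values in mouse 315, so this follows in large part from the choice. Mouse trypsinogen genes are near-identical copies, so the Prss2 and Prss1 probes may have read some of the same RNA, which was not tested. In mouse 137 the 2 probes came apart, with Prss1 2.02 above its block median and Prss2 at -0.0368.

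**Figure D2:**
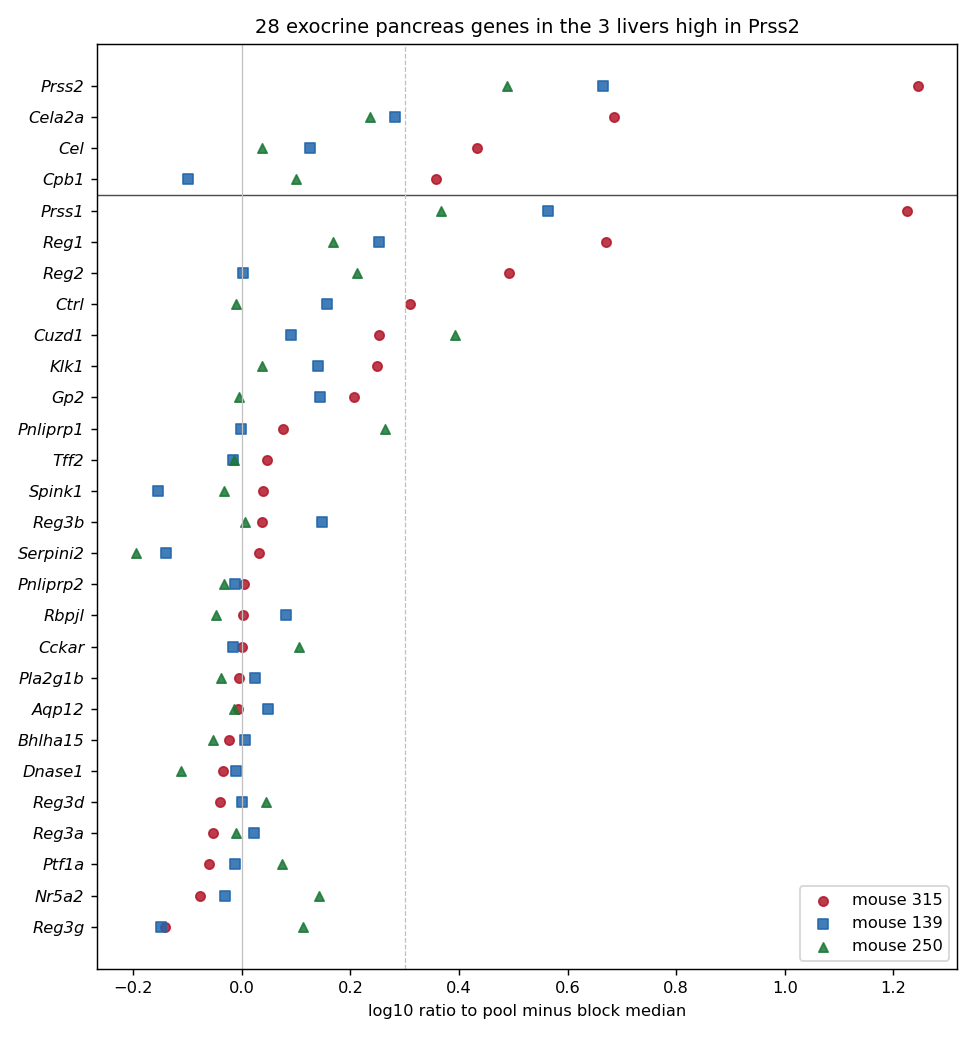
Log10 ratio to the pool minus block median (horizontal axis) of 28 exocrine pancreas genes (rows) in the livers of mice 315, 139 and 250, the 3 livers high in Prss2. The 4 members stand above the black line and the dashed line marks 2-fold. Prss2 and Prss1 lie to the right of it in all 3 livers, at 1.25 and 1.22 in mouse 315.

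Cpb1 was high in 8 livers, and in the 7 other than mouse 315 Prss2 lay between -0.500 and 0.0756 from its block median. The liver of mouse 137 had the largest value, 24.2-fold above its block median (1.38), with Prss2 at -0.0368, Cel at -0.0270 and Cela2a at -0.0286. Its array SD of 0.223 had rank 3 from the widest, and 1.34% of all probes were high in it. The array of mouse 77 was the widest (SD 0.258, with 6.98% of all probes high), and there Cpb1 was 2.17-fold above the block median while Prss2 (-0.500) and Cel (-0.111) were the lowest of all livers. In mouse 314, Cpb1 was 3.31-fold above it and Prss2 lay at -0.276 (rank 301 of 302), with 1.17% of all probes high. In mouse 75, Cpb1 was 3.72-fold above it and Prss2 lay at -0.213, with 0.242% of all probes high. In mice 88, 208 and 288, Cpb1 was 2.32, 2.28 and 2.08-fold above it, and 0.0766%, 0.145% and 0.136% of all probes were high. Of the other listed exocrine genes, only Prss1 in mouse 137, Reg3b and another of the Prss1 probes (2.72-fold) in mouse 77, and the cholecystokinin receptor gene Cckar in mice 75 and 288 were high in these 7 livers. Cckar was high in 23 livers in all. Mice 75 and 288 also shared high values of Dmbt1 and Muc3, a scavenger-receptor protein and a mucin of mucosal surfaces, at 30.3 and 13.3-fold in mouse 75 and at 29.4 and 6.62-fold in mouse 288. These 2 genes were high in 46 and 35 livers in all. These 9 livers with a single high member, and Dmbt1 and Muc3, were picked for naming after their values were seen.

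Correlations between the 4 genes were computed over all livers from block-centred values, with two-sided permutation within blocks, and the same pairs were tested with limma over all probes. With each member set against Prss1, Ctrl, Reg1, Reg2 and Gp2 as well, 26 relations were computed. Permutation p values are given without adjustment for these 26, unless stated otherwise. Prss2 and Cel had r = 0.599 and rho = 0.150 (permutation p = 1e-05, the smallest that the resamples can give, and 0.00934). Prss2 and Cela2a had r = 0.299 and rho = 0.103 (permutation p = 3e-05 and 0.0756), and Cel and Cela2a had r = 0.291 and rho = 0.148 (permutation p = 1e-05 and 0.0106). In limma with Benjamini-Hochberg adjustment over all probes these 3 pairs had adjusted p = 5.05e-26, 3.23e-05 and 3.56e-06. Here and below, unless stated otherwise, a pair of members was fitted on the gene that comes first in the order Prss2, Cel, Cela2a, Cpb1. Fitted on the other gene, limma's adjusted p for the 3 pairs was 1.76e-26, 2.42e-05 and 4.49e-05. Ranks gave clearly lower values than r for all 3 pairs.

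All 3 values of r were lower without single livers. Without mouse 315, r was 0.316 for Prss2 and Cel, 0.180 for Prss2 and Cela2a, and 0.181 for Cel and Cela2a. Without the 2 livers farthest from the median of the first gene of each pair, it was 0.241, 0.149 and 0.185. Without the 10 livers high in at least 1 gene it was 0.137, 0.101 and 0.144, and limma's adjusted p was then 0.0785, 0.204 and 0.0263. Fitted on the second gene of each pair, limma's adjusted p was 0.0441, 0.282 and 0.0945, so which pairs passed depended on the order of fitting. These 10 livers were left out for high values of the same genes, so a lower r follows in part from the choice. With all livers kept and ranks turned into normal scores, partial r was 0.181 for Prss2 and Cel, 0.150 for Prss2 and Cela2a, and 0.188 for Cel and Cela2a (limma adjusted p = 0.0202, 0.0601 and 0.00303). By block, Prss2 and Cel had r = 0.846 in the block of mouse 315 (low Eif2s3y, above 212) and 0.0856 there without the high livers. They had 0.559 in the block of mouse 139 (high Eif2s3y, up to 212). The values were 0.130 at low Eif2s3y up to 212 and 0.0253 at high Eif2s3y above 212. Without the high livers these 3 blocks had 0.243, 0.174 and 0.0247. With all livers Cel and Cela2a had 0.494, 0.188, 0.163 and 0.162 in the same order of blocks, and Prss2 and Cela2a 0.460, 0.375, -0.0224 and 0.121. Without the high livers Cel and Cela2a had 0.233, 0.0541, 0.161 and 0.155, and Prss2 and Cela2a 0.0634, 0.271, -0.0277 and 0.121.

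**Figure D3:**
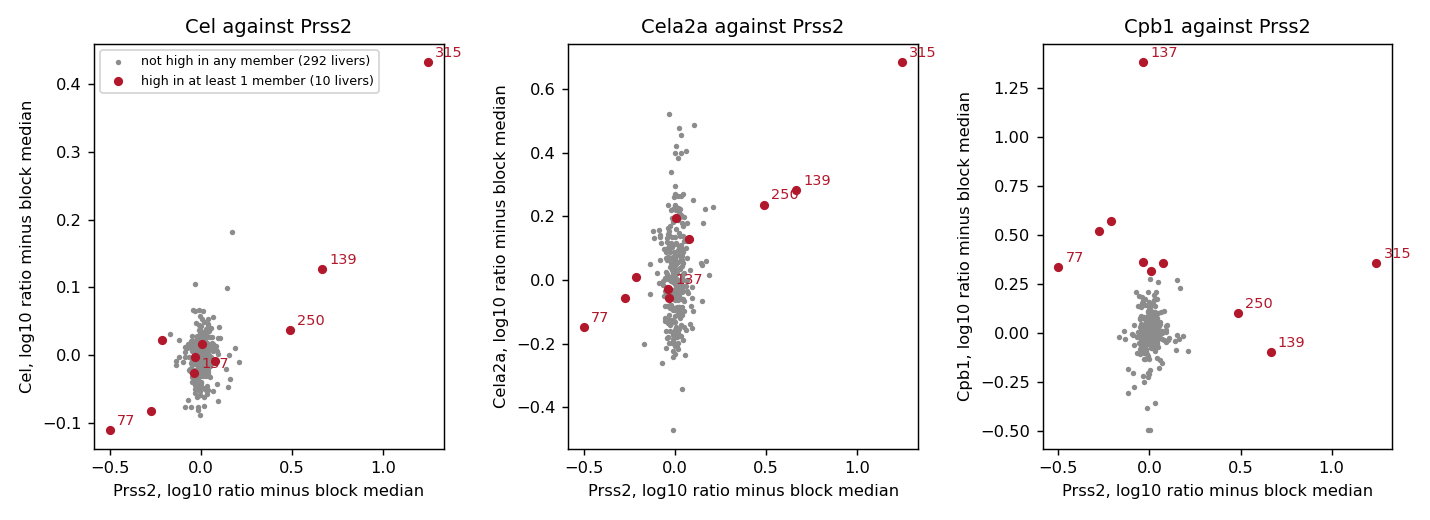
Cel, Cela2a and Cpb1 (vertical axes) against Prss2 (horizontal axis) in 302 livers, each as log10 ratio to the pool minus block median. Red points are the 10 livers high in at least 1 of the 4 genes, some with their mouse number. Mouse 315 stands alone at the upper right for Cel and Cela2a, and the highest Cpb1 liver, mouse 137, lies near 0 for Prss2.

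No relation of Cpb1 with the other 3 genes passed limma's threshold. Its r was 0.0212 with Prss2, 0.0719 with Cel and -0.0640 with Cela2a (permutation p = 0.641, 0.181 and 0.244), and rho was 0.0559, 0.0463 and -0.115 (permutation p = 0.333, 0.424 and 0.0460). With Benjamini-Hochberg adjustment over the 26 relations, the permutation p for the rho of -0.115 was 0.109. In limma the adjusted p was 0.889, 0.349 and 0.545. Without the 10 high livers r was 0.117, 0.0931 and -0.130. In the block of mouse 315 r was 0.260, 0.310 and 0.218 with all livers, and 0.0663, 0.226 and 0.0996 without the high livers. At high Eif2s3y up to 212 it was -0.231, -0.201 and -0.192 with all livers, and -0.0668, -0.0829 and -0.180 without the high livers. The mean of the 6 pairwise r was 0.203 with all livers and 0.0769 without the 10 high livers, and the mean rho with all livers was 0.0646.

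**Figure D4:**
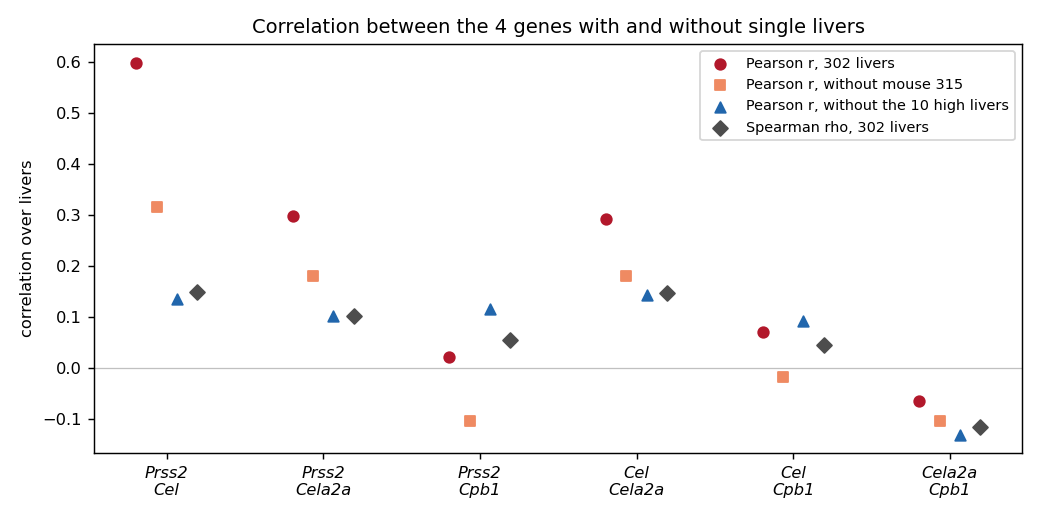
Correlation over livers (vertical axis) for the 6 pairs of the 4 genes (horizontal axis): Pearson r with all 302 livers, without mouse 315 and without the 10 high livers, and Spearman rho with all livers. Prss2 and Cel stand at 0.599 with all livers, 0.316 without mouse 315 and 0.137 without the 10 livers, near the rho of 0.150.

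Other exocrine genes were then set against each member with limma, which tested every probe on the member and the blocks. The 24 listed genes had 26 probes. With Prss2, 8 of the 26 were higher and 0 lower past the threshold, while 3.89% of all probes were higher and 3.2% lower. They were Prss1 (partial r = 0.478, adjusted p = 8e-15), Ctrl (0.472, adjusted p = 3.89e-14), Reg2 (0.252), Ptf1a (0.229), Tff2 (0.213), Reg1 (0.204), Pnliprp1 (0.203) and Cuzd1 (0.198). Without the 10 high livers there were 8 higher and 1 lower, beside 12.5% of all probes higher. The count over all probes depended on which livers were used: it was 915 higher and 752 lower with all mice, 77 and 11 without mouse 77, and 2967 and 3204 without mouse 315. Without the 3 arrays of widest spread 5 of the 26 exocrine probes were higher beside 0.272% of all probes, with mouse 315 still included. With the 10 high livers left out as well, 6 of the 26 were higher and 1 lower, beside 9.85% of all probes higher. Prss2 and Prss1 had r = 0.477 with all livers, 0.255 without mouse 315 and 0.245 without the 10 high livers, with rho = 0.120.

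With Cel, 12 of the 26 exocrine probes were higher and 2 lower, beside 23% of all probes higher and 15.2% lower. Cel thus moved with a large part of the array, and the median partial r of the 26 probes was 0.112. With all livers, Ctrl was the named gene most like Cel (partial r = 0.624, limma adjusted p = 8.53e-29). Without mouse 315 the nearest was Dlx2 (r = 0.594), and the 95th percentile of r over all probes was 0.359. The r of Ctrl and Cel over all livers was 0.626 and their rho 0.424 (permutation p = 1e-05 for each, the smallest possible). It was 0.468 without mouse 315, 0.446 without the 2 farthest livers and 0.431 without the 10 high livers. It was 0.816 in the block of mouse 315 and 0.588, 0.384 and 0.448 in the blocks of high Eif2s3y up to 212, low Eif2s3y up to 212 and high Eif2s3y above 212. Without the high livers these block values were 0.431, 0.485, 0.376 and 0.447. Gp2 also followed Cel (partial r = 0.386, limma adjusted p = 8.96e-10), with rho = 0.404 and with r = 0.375 without the 10 high livers. Without these 10 livers the 95th percentile of r over all probes was 0.376. Gp2 thus did not stand out from all probes there, and Ctrl at 0.431 lay somewhat above that percentile. Spink1 (partial r = -0.162) and Dnase1 (-0.175) were the probes lower with Cel.

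With Cela2a, 2 of the 26 probes were higher and 0 lower, beside 3.92% higher and 4.41% lower of all probes: Ctrl (partial r = 0.305, adjusted p = 2.19e-05) and 1 of the 3 Prss1 probes (0.185). With Cpb1, 3 were higher and 1 lower, beside 5.83% higher and 5.18% lower. Those higher with Cpb1 were 2 probes of Prss1 (0.517 and 0.183) and Reg3g (0.187), and Reg3d (-0.176) was lower. Cpb1 and Prss1 had r = 0.520 with rho = 0.0598, and r = 0.176 without mice 137 and 75. Without the 10 high livers, 10 of the 26 exocrine probes were higher with Cel, 2 with Cela2a and 1 with Cpb1, beside 30.6%, 4.24% and 5.46% of all probes.

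The named genes most like each member, by Pearson r over all 302 livers, were only in part exocrine genes. For Prss2 they were Prss1 (0.477), Ctrl (0.473), Olfr983 (0.407), Syne1 (0.376) and Sbk2 (0.369), where the 95th percentile of r over all probes was 0.151. Without mouse 315 they were Caskin1, D1Pas1, Elavl2, Olfr983 and Cenpc1 (0.513 to 0.503), so that neither Prss1 nor Ctrl remained among them. By likeness to Prss2, Cel had rank 2 of all other probes with all livers, rank 401 without mouse 315 and rank 3336 without the 10 high livers. For Cel they were Ctrl (0.626), Ms4a20 (0.462), Dlx2 (0.444), Mpped1 (0.437) and Rp1 (0.426), where the 95th percentile was 0.281. Without mouse 315 they were Dlx2, Ms4a20, Olfr482, Acsbg1 and Mpped1 (0.594 to 0.567), so that Ctrl did not remain among them. For Cpb1 they were Zfp366 (0.600), Vmn1r28 (0.593), Grik2 (0.589), Lexis1 (0.584) and Zgrf1 (0.582), where the 95th percentile was 0.169, and each of these genes had its highest value in mouse 137.

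Cela2a differed from the other 3 genes in which genes it moved with. By r its nearest genes were Akr1e1 (0.515), Eloa (0.456), Prdm16 (0.431), Hdac1 (0.418) and Kdm4a (0.399), and without mouse 315 they were the same 5 (0.535 to 0.416). All but Akr1e1, which lies on chromosome 13, lie on chromosome 4, as Cela2a does. By absolute partial r, 18 of the 20 nearest named genes lay on chromosome 4, which holds 5.73% of the named genes, and this count was 18 without the 10 high livers too. The gene nearest by this measure was Rap1gap, a regulator of the GTPase Rap1, at -0.537 (adjusted p = 2.04e-20 in limma). It was followed by the phospholipase gene Pafah2 (-0.520), by Akr1e1 (0.518), by the progestin receptor gene Paqr7 (-0.509) and by the growth-regulating kinase gene Mtor (-0.489). Of the 18 chromosome 4 genes, 14 were lower and 4 higher when Cela2a was higher.

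The limma calls gave the same picture. Of 735 probes of named chromosome 4 genes, 130 (17.7%) were called with Cela2a in either direction, against 938 of 11880 on other chromosomes (7.90%). For the other 3 members the shares on their own and on other chromosomes were 7.25% and 6.56% for Prss2 (chromosome 6), 38.9% and 39.0% for Cel (chromosome 2) and 11.6% and 10.2% for Cpb1 (chromosome 3). Along chromosome 4, in the gene order of GRCm38.p6, 5 of the 50 genes within 25 measured genes of Cela2a had an absolute partial r above 0.3. The count was 5 of 50 at 26 to 50 genes, 16 of 100 at 51 to 100, 5 of 100 at 101 to 200 and 7 of 319 farther away, against 17 of 10192 genes on other chromosomes. The direct neighbour Casp9, an initiator caspase, had -0.405. Genes on 1 chromosome are inherited together to some extent in an F2 cross, and whether the genotype at chromosome 4 moved with Cela2a was not tested, since genotypes were not used here. The array's probes were placed by gene name only.

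**Figure D5:**
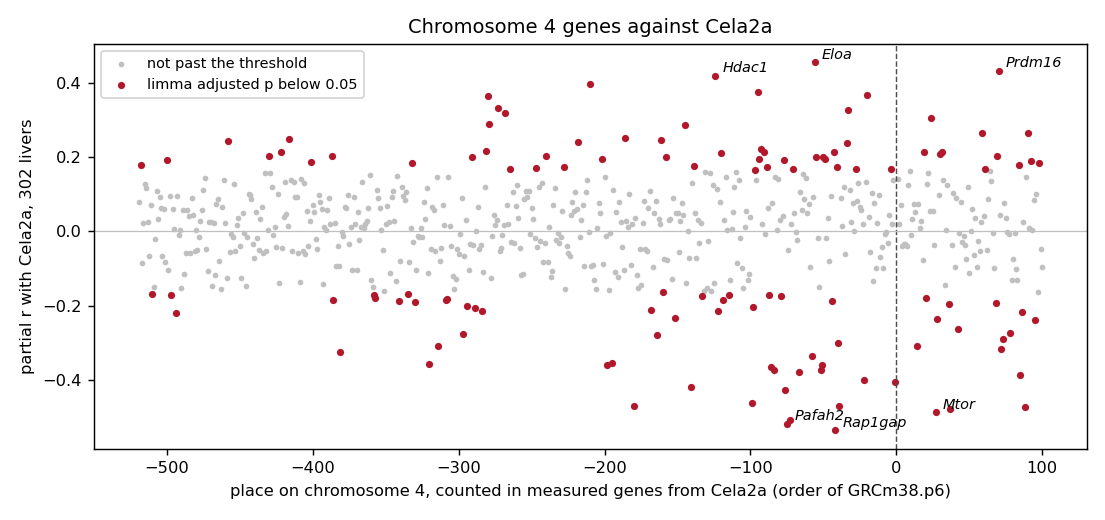
Partial r with Cela2a over 302 livers (vertical axis) of the measured chromosome 4 genes, by their place counted in measured genes from Cela2a in the gene order of GRCm38.p6 (horizontal axis, Cela2a at the dashed line). Red points passed limma's adjusted threshold of 0.05. Large values of both signs cluster on both sides of Cela2a, with Rap1gap at -0.537 and Eloa at 0.457.

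The 2 ranges of mouse numbers were compared last, since the labels do not say what a number marks and many probes differed between them. With the Eif2s3y cluster in the model, 64.5% of all probes passed limma's threshold between the 143 mice above 212 and the 159 up to 212, 33.9% of all probes being higher above 212. Cel averaged 0.0199 ± 0.0459 above 212 and 0.00795 ± 0.0365 up to 212 (SD), a fold of 1.03 (adjusted p = 0.0222). Cela2a averaged 0.0287 ± 0.177 above 212 and -0.0113 ± 0.130 up to 212, a fold of 1.10 (adjusted p = 0.0348). Cpb1 averaged 0.0570 ± 0.113 above 212 and 0.0226 ± 0.164 up to 212, a fold of 1.08 (adjusted p = 0.0470). Prss2 averaged 0.00428 ± 0.124 above 212 and 0.00208 ± 0.0834 up to 212 (adjusted p = 0.904). Passing in 3 of 4 genes is near the share of 64.5% over all probes in either direction. All 3 were higher above 212, as were 33.9% of all probes, and 4 genes are too few to weigh against these shares. Each difference was small beside the SD, and without mouse 315 limma's adjusted p was 0.0569 for Cela2a and 0.0635 for Cpb1.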

How the data were processed

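The authors deposited 1 table of log10 ratios for 23562 probes in 302 mice. The base was read from values that end at -2 and 2, and base and direction are not stated. Per the labels' protocols RNA was column-purified with DNAse and labelled by automated aminoallyl amplification. How images were read and how values were corrected or normalized is not given in the sources used here. Array SDs ran from 0.0697 to 0.258 and array medians from -0.0115 to 0.0172, and 0.0831% of values were missing. Probes were named through gene IDs to RefSeq: 13655 had 1 symbol, 48 several and 9859 were not listed, and 12652 were named.

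The 23512 probes measured in 90% of the mice or more were tested. Values were centred on block medians, and the Eif2s3y clusters were separated by a gap from -0.968 to -0.437. limma 3.58.1 in R 4.3.3 fitted each probe on a member and the blocks, or on number range and Eif2s3y cluster, with Benjamini-Hochberg adjustment at 0.05, and was tested on simulated data. Correlations had 100000 permutations within blocks (numpy 2.4.6, scipy 1.17.1). The named genes were the members, the exocrine list, the 5 genes of highest r with each member with and without the livers high in at least 2 members, and the genes high in those livers. The chromosome counts were added after the data were seen. Members and lists were chosen with earlier results of these data known. Alternatives changed the high rule, the centring, the array scaling, ranks and the livers used. Each mouse was 1 array, and precision is limited by how many arrays there are.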

Additional observations from a re-analysis of the deposited data

How the results depend on the processing

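The liver of mouse 315 was the only one high in at least 2 members under each of the 8 settings run. They were as reported, 1.5 or 3-fold, and no minimum or 8 robust SDs. The others were centring on all mice, arrays divided by their SD, and leaving out the 3 widest arrays. At 3-fold and at 8 robust SDs no liver was high in at least 3 members, while in the other settings mouse 315 was. Over all settings the livers high in at least 1 numbered 6 to 20. Of the 60 alternative values of the pair correlations, each fitted on the first gene of the pair only, 52 kept their direction and their side of the threshold. The sign turned in 4 that passed no threshold: partial r of Prss2 with Cpb1 was -0.103 without mouse 315 and -0.0944 without the 2 farthest mice, and that of Cel with Cpb1 was -0.0189 and -0.0487. Prss2 with Cel gave partial r = 0.135 (limma adjusted p = 0.0785) without the 10 high livers, Prss2 with Cela2a gave 0.100 (adjusted p = 0.204) without them and 0.150 (adjusted p = 0.0601) on ranks, and Cel with Cpb1 passed at 0.139 (adjusted p = 0.0423) without the 3 widest arrays. Fitted on the second gene instead, Prss2 with Cel passed without the 10 high livers (limma adjusted p = 0.0441). In that order Cel with Cela2a did not pass without them (limma adjusted p = 0.0945). Nor did Cel with Cpb1 without the 3 widest arrays (limma adjusted p = 0.101). The numbers of probes following a member moved most. Those higher and lower with Prss2 were 2967 and 3204 without mouse 315, 2931 and 2748 without the 10 high livers, 2315 and 1955 without these and the 3 widest arrays, 1789 and 1408 on ranks, 61 and 13 with arrays divided by their SD, 64 and 14 without the 3 widest arrays, and 77 and 11 without mouse 77. Those with Cel were 2066 and 1060 with the first principal component as covariate, against 5408 and 3573. Those with Cpb1 were 2309 and 1987 without centring, 2124 and 1850 on ranks, and 381 and 184 with arrays divided by their SD, against 1371 and 1219. Those with Cela2a stayed within 1.5 times of 921 and 1038. The cause of these moves was not tested. Between number ranges, calls were lost for Cel within low Eif2s3y (0.0145) and within high Eif2s3y (0.00959), for Cela2a within low (0.0304) and high Eif2s3y (0.04999), without mouse 315 (0.0360) and on normal scores (0.220 score units), and for Cpb1 with no covariate (0.0344), within low Eif2s3y (0.0199) and without mouse 315 (0.0330). The sign also turned for Prss2, which passed in no setting, within high Eif2s3y (-0.00761), without mouse 315 (-0.00718), on normal scores (-0.0936) and without the 3 widest arrays (-0.000764). No paired analysis was possible because there was 1 group. Settings that left out livers or the 3 widest arrays by high calls or array SD were in part chosen after the data were seen.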
